A study of Mus musculus with 3 samples.

Results

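The genes described here encode cargo of the specific and gelatinase granules of neutrophils, chosen by gene symbol from the deposited expression table. All 10 were found among its 16072 named genes: *Ltf*, *Camp*, *Ngp*, *Lcn2*, *Cd177*, *Chil3*, *Mmp8*, *Mmp9*, *Fcnb* and *Olfm4*. RNA-seq was performed on myeloid cells from the bone marrow (BM) of C57BL/6 mice, labelled as Ly6G+, bearing subcutaneous B16.F10 melanoma cells. The mice were injected in the muscle with an adeno-associated virus (AAV) 1 week after the melanoma cells. The myeloid cells were collected 3 weeks after the vector. The study names the BM cells Ly6G+ in its methods but Gr-1+ in its figure of this time point. Its antibody list holds an antibody to Gr-1 and none to Ly6G. AAV-Ctrl was an empty vector and AAV-IL-27 carried the joined EBI3 and p28 subunits of mouse IL-27 behind the broadly active CAG promoter, so both groups carried melanoma cells and a vector. Mice were aged 6 to 10 weeks. AAV-Ctrl had 2 libraries and AAV-IL-27 had 1. The table has another column, headed as a first IL-27 library, that no sample label matches and that was not used. The published design gives n = 2 per group for these cells, whereas every AAV-IL-27 value here comes from the library numbered 2 alone. The series text counts 4 mice but places 2 with AAV-Ctrl and 1 with AAV-IL-27, and these 3 libraries are described. Sets of 3 values are in the order AAV-Ctrl 1, AAV-Ctrl 2, AAV-IL-27 throughout.

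Neutrophils store proteins in granules that are filled in sequence as the cell matures. Azurophil granules come first, at the promyelocyte stage, and hold myeloperoxidase and serine proteases. Specific granules follow at the myelocyte and metamyelocyte stages and hold lactoferrin, lipocalin-2 and cathelicidin, and gelatinase granules, rich in matrix metalloproteinase 9, follow after them. The transcription factor C/EBPε drives many of the specific granule genes, and these are among the most abundant transcripts of immature BM neutrophils. Expression was given as FPKM, fragments per 1 kb of transcript scaled to the mapped fragments of the library, which adjusts for transcript length and depth. FPKM totals still differed between libraries (594158, 586513 and 573759), so small differences between libraries also depend on the scaling.

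Most of the granule genes were abundant, 8 of 10 with a mean of at least 1000 FPKM, and the 10 differed little between AAV-IL-27 and AAV-Ctrl. On the log2(FPKM + 1) scale, AAV-IL-27 minus the AAV-Ctrl mean (the log2 difference from here on) had a median of -0.07 over the 10 genes, from -0.35 for *Fcnb* to 0.14 for *Olfm4*. Over the 9130 genes whose mean FPKM reached 1, the same median was -0.01. The median of the 10 genes was -0.13 without AAV-Ctrl 1 and -0.03 with the FPKM totals of the libraries made equal. In those settings the median over all genes was -0.01 and 0.03, so equal totals raised both medians. Within AAV-Ctrl, the second library minus the first, the 10 genes had a median of 0.08, from -0.05 to 0.31, with the second library higher in 8 of 10, beside 50.3% of all genes. With 1 AAV-IL-27 library there is no replicate error in that group, so no test was run and each difference is set beside that of the AAV-Ctrl libraries. Bulk RNA does not separate fewer cells of a type from less RNA per cell.

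The labelled cell type was checked against neutrophil genes. *S100a9*, a calcium-binding protein of neutrophils, was at 73508, 71786 and 68765 FPKM, and its partner *S100a8* at 41371, 38113 and 38320 FPKM. *Ly6g*, which encodes the antigen in the label, was at 711.76, 766.11 and 586.29 FPKM. All 10 neutrophil identity genes were present, with a median log2 difference of -0.00. The depth that the spacing of low FPKM values implies was about 19200000, 19600000 and 19100000 fragments. *Fcnb*, the lowest of them, rested on an estimated 386, 460 and 322 fragments, and *Olfm4*, the next lowest, on 5706, 7230 and 6961.

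**Figure D1:**
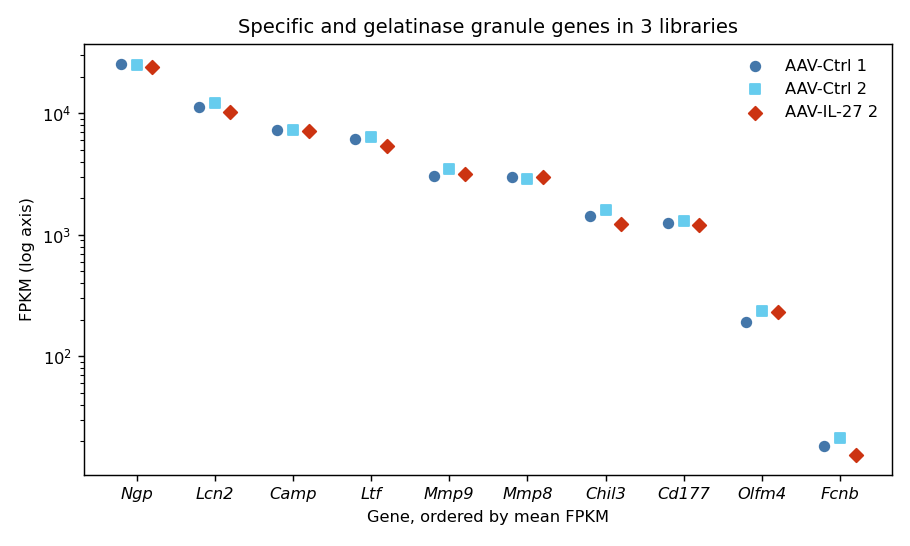
FPKM of the 10 genes (log axis) in AAV-Ctrl 1 (circles), AAV-Ctrl 2 (squares) and AAV-IL-27 (diamonds), 1 point per library, ordered by mean FPKM. The 3 libraries lie close together for each gene, while the mean level spans 1360-fold from *Ngp* to *Fcnb*.

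The upstream sequences of the most abundant genes on chromosome 9 are shown first, because C/EBP factors are known regulators of this gene group, beside those of *Mmp8*, a granule gene elsewhere on that chromosome, and *Fcnb*, the least abundant member. Each is the 150 bases just before the start in the promoter table, 5′ to 3′ on the gene's strand, from RefSeq on GRCm38.p6. They lie at chr9:110419658-110419807 (plus strand) for *Ngp*, chr9:109849457-109849606 (minus strand) for *Camp*, chr9:111019142-111019291 (plus strand) for *Ltf*, chr9:7558279-7558428 (plus strand) for *Mmp8* and chr2:28084879-28085028 (minus strand) for *Fcnb*. Capitals mark letters that fit the C/EBP pattern TTNNGNAA on either strand, where N is any base. The *Fcnb* start in the promoter table lies inside the annotated gene, so 32 bases of its stretch belong to the gene span given with its values. A match whose first base lies just outside the printed stretch is capitalised from where it enters.
Ngp: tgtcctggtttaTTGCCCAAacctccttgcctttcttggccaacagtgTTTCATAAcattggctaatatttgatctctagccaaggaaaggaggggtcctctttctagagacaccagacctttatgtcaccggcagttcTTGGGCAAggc
Camp: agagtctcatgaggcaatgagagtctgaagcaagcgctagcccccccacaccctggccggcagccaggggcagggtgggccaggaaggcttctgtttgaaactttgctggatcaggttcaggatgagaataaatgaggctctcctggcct
Ltf: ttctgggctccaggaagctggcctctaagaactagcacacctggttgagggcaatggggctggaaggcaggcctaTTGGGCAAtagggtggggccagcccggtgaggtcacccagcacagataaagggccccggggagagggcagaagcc
Mmp8: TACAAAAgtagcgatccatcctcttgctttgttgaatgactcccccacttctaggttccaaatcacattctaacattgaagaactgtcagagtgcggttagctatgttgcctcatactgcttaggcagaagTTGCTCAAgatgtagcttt
Fcnb: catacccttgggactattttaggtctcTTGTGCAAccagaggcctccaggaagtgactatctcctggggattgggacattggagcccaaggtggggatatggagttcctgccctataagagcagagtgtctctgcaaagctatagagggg

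RefSeq promoters were found for 9 of the 10 genes, all but *Mmp9*. Within the 250 bases upstream, 8 of 9 held TTNNGNAA, against 36.8% of 32817 promoters of the same length. The exception was *Camp*. The stricter pattern TTGCNNAA, whose matches are all matches of the first, was found in 5 of 9 (*Fcnb*, *Lcn2*, *Mmp8*, *Ngp* and *Ltf*) against 9.57% of promoters. In *Ngp* it occurred at 138 and 11 bases before the start, in *Ltf* at 75 and in *Mmp8* at 19. The PU.1 core GAGGAA was present in 5 of 9 against 23.3%, the GATA core AGATAA in 2 of 9 against 9.99% and the TATA box TATAAA in 1 of 9 (*Cd177*) against 12.4%. Both strands were searched. These are counts of letters only, and binding was not measured.

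*Ngp* and *Camp* belong to the cathelicidin family, whose products are stored as precursors in specific granules. *Ngp* (neutrophilic granule protein, NCBI Gene 18054, chr9:110419808-110423012, plus strand, 4 exons) was the third most abundant gene of the table, with 25643.65 FPKM in AAV-Ctrl 1, 24728.03 FPKM in AAV-Ctrl 2 and 24209.20 FPKM in AAV-IL-27. The AAV-IL-27 library was the lowest, at 96.1% of the AAV-Ctrl mean of 25186 ± 647 (SD, n = 2), a log2 difference of -0.06. Its distance from the nearer AAV-Ctrl library was smaller than the distance between those libraries. *Camp*, which encodes the antimicrobial peptide CRAMP (NCBI Gene 12796, chr9:109847377-109849456, minus strand, 4 exons), was at 7233.65, 7293.01 and 7085.36 FPKM. The AAV-Ctrl libraries lay closer together, on the log2 scale, than those of any other member, and AAV-IL-27 was again lowest, at 97.5% of the AAV-Ctrl mean, and the log2 difference was -0.04. With FPKM totals made equal, neither *Ngp* nor *Camp* lay below both AAV-Ctrl libraries. The difference of *Camp* turned to 0.01, beside a median of 0.03 over all genes under that scaling. The ratio of *Camp* to *Ngp* was 0.282, 0.295 and 0.293, with AAV-IL-27 between the others.

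*Ltf* and *Lcn2* encode proteins that keep iron from microbes, lactoferrin by binding the metal and lipocalin-2 by binding bacterial siderophores. *Lcn2* (NCBI Gene 16819, chr2:32384637-32387739, minus strand, 6 exons) was at 11241.82, 12045.79 and 10289.54 FPKM. The AAV-IL-27 value lay below both, at 88.4% of the AAV-Ctrl mean of 11644 ± 568 (SD, n = 2), a log2 difference of -0.18. Its gap to the nearer AAV-Ctrl library was 952.28 FPKM, and the AAV-Ctrl libraries differed by 803.97 FPKM. *Ltf* (NCBI Gene 17002, chr9:111019292-111042766, plus strand, 17 exons) was at 6146.60, 6339.36 and 5413.03 FPKM. Here too the AAV-IL-27 library was lowest, at 86.7% of 6243 ± 136 (SD, n = 2), a log2 difference of -0.21. The AAV-Ctrl libraries of *Ltf* were 192.76 FPKM apart and the AAV-IL-27 library lay 733.57 FPKM below the nearer one, 3.81 times that distance. No other member had so large a gap relative to its AAV-Ctrl libraries. Within each library *Ltf* and *Lcn2* kept nearly the same proportion, with a ratio of 0.547, 0.526 and 0.526.

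Of the matrix metalloproteinase genes, *Mmp8* and *Mmp9* did not lie below both AAV-Ctrl libraries, while *Mmp25*, a membrane-anchored enzyme of neutrophil granules outside the 10 genes, did (223.03, 251.70 and 200.59 FPKM, a log2 difference of -0.24). *Mmp8*, neutrophil collagenase of the specific granules (NCBI Gene 17394, chr9:7558429-7568486, plus strand, 10 exons), was at 2962.74, 2888.65 and 2977.61 FPKM. It was the 1 gene of the group above both AAV-Ctrl libraries, by 14.87 FPKM, and the log2 difference was 0.03. *Mmp9*, gelatinase B and the defining enzyme of gelatinase granules (NCBI Gene 17395, chr2:164940326-164955850, plus strand, 13 exons), was at 3048.59, 3460.26 and 3143.54 FPKM. The AAV-IL-27 library lay between the AAV-Ctrl libraries, with a log2 difference of -0.05. The ratio of *Mmp8* to *Mmp9* was 0.972, 0.835 and 0.947. Of their regulators, the inhibitor gene *Timp2* was at 134.26, 133.95 and 141.69 FPKM and *Reck*, a membrane inhibitor, at 12.20, 11.62 and 11.79 FPKM. *Timp1* was listed at 0.25 and 0.19 FPKM in AAV-Ctrl and at 0 in AAV-IL-27.

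*Cd177* encodes a surface and granule glycoprotein that binds proteinase 3 and the integrin pair of *Itgam* and *Itgb2* (NCBI Gene 68891, chr7:24743983-24760334, minus strand, 17 exons). It was at 1249.38, 1305.86 and 1202.34 FPKM. AAV-IL-27 was lowest, at 94.1% of the AAV-Ctrl mean, a log2 difference of -0.09, and its gap to the nearer AAV-Ctrl library was smaller than the gap between them. A stretch of 303 nt of its transcript is 96.0% identical to that of *Gm4763*, so part of its fragments could be assigned to either gene. Of its partners, *Itgam* was at 734.37, 737.66 and 744.12 FPKM and *Itgb2* at 990.43, 1003.28 and 1043.38 FPKM. *Prtn3*, the proteinase 3 gene, was at 11.15, 13.30 and 16.08 FPKM, above both AAV-Ctrl libraries with a log2 difference of 0.37.

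*Olfm4* encodes olfactomedin 4, a specific granule protein known from a subset of neutrophils (NCBI Gene 380924, chr14:80000302-80023141, plus strand, 7 exons). It was at 189.68, 234.94 and 232.12 FPKM. AAV-Ctrl 1 was the low library, and AAV-IL-27 stood within 2.82 FPKM of AAV-Ctrl 2. The log2 difference of 0.14 was therefore smaller than the 0.31 between the AAV-Ctrl libraries, and it was -0.02 against AAV-Ctrl 2 alone.

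The lectin-like members had the lowest AAV-IL-27 values relative to AAV-Ctrl. *Chil3* encodes the chitinase-like lectin Ym1, made by neutrophil precursors, monocytes and some macrophages (NCBI Gene 12655, chr3:106147554-106167564, minus strand, 11 exons), and was at 1425.67, 1586.39 and 1219.86 FPKM. AAV-IL-27 was below both AAV-Ctrl libraries, at 81.0% of 1506 ± 114 (SD, n = 2), a log2 difference of -0.30. Its transcript is 94.3% identical over 1540 aligned positions to that of *Chil4*, listed at 0.14, 0.25 and 0.25 FPKM, so the split between these genes is uncertain. The related *Chil1* (587.37, 607.19 and 504.83 FPKM) and *Chil5* (23.69, 24.77 and 18.59 FPKM) were also lowest in AAV-IL-27, with log2 differences of -0.24 and -0.36. The 4 other genes of that family in the table had a mean FPKM under 1.

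*Fcnb* encodes ficolin-B, a pattern recognition lectin of myeloid cells (NCBI Gene 14134, chr2:28076479-28084910, minus strand, 9 exons), and was at 18.30, 21.35 and 15.32 FPKM. AAV-IL-27 was the lowest, at 77.3% of 19.8 ± 2.16 (SD, n = 2), with the largest log2 difference of the group at -0.35. The 95% Poisson intervals on the estimated fragments, which cover counting error only, ran from 16.5 to 20.2 FPKM in AAV-Ctrl 1, from 19.4 to 23.4 in AAV-Ctrl 2 and from 13.7 to 17.1 in AAV-IL-27. The interval of AAV-IL-27 overlapped that of AAV-Ctrl 1 but not that of AAV-Ctrl 2. Overlap of such intervals does not compare the groups. For *Ltf* even the AAV-Ctrl libraries had intervals apart from each other (6125 to 6168 and 6318 to 6361 FPKM). The other mouse ficolin gene, *Fcna*, known from macrophages, was at 76.31, 75.69 and 10.01 FPKM, a log2 difference of -2.81, and transcripts of macrophages as a list were at 35.8% of their summed AAV-Ctrl level. Their part in the values of *Chil3* and *Fcnb* was not tested.

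**Figure D2:**
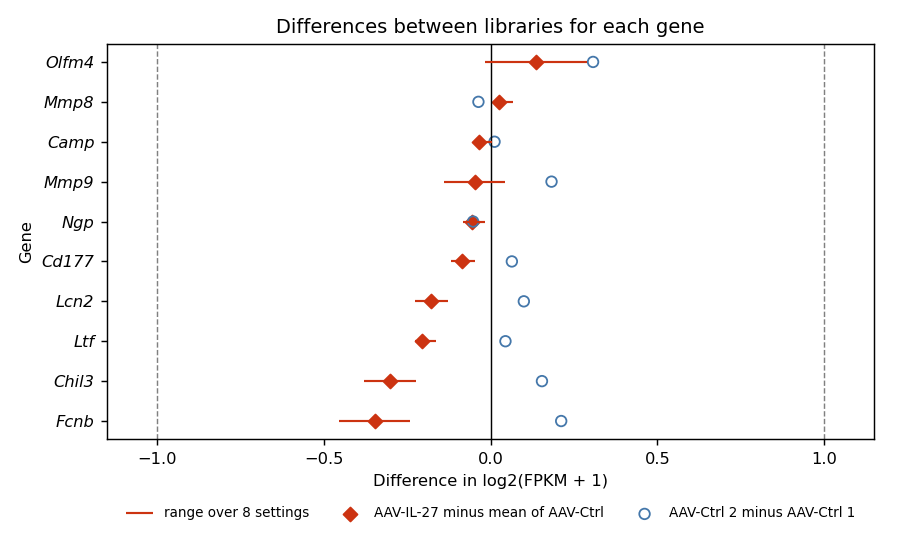
Difference in log2(FPKM + 1) for each gene between AAV-IL-27 and the mean of the AAV-Ctrl libraries (diamonds, with the range over 8 settings as a line) and between the AAV-Ctrl libraries (open circles). No gene reaches the dashed lines at 1 log2 unit, and the diamonds run from -0.35 to 0.14.

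Each member was also placed against fixed limits. None of the 10 lay at least 1 log2 unit below both AAV-Ctrl libraries, as 2.32% of the 9130 genes did, and none lay as far above, as 0.307% did. At 0.5 log2 units the count was again 0 in each direction, beside 7.01% of genes lower and 1.57% higher. Outside the AAV-Ctrl range by any amount, 7 of 10 were lower (*Ltf*, *Camp*, *Ngp*, *Lcn2*, *Cd177*, *Chil3* and *Fcnb*), 1 was higher (*Mmp8*) and 2 lay between (*Mmp9* and *Olfm4*). Of all genes, 41.9% were lower and 38.9% higher by this rule. The lower side thus held more members than the background share, but by amounts that were small. The largest, that of *Fcnb*, was 0.24 below the nearer AAV-Ctrl library. The size of the difference exceeded that between the AAV-Ctrl libraries in 7 of 10 genes, beside 65.8% of all genes. No member's difference reached 0.57, the 99th percentile of the size of the AAV-Ctrl 2 minus AAV-Ctrl 1 difference over all 9130 genes. Those of *Chil3* and *Fcnb* were larger in size than the 90th percentile, 0.25. These percentiles are an unlike measure, since they compare single libraries while a member's difference is taken from a mean of 2. They also cover genes far less abundant than most members. Scaling shifted these counts. With FPKM totals made equal, 5 members were below both AAV-Ctrl libraries (*Camp* and *Ngp* no longer were) and 2 above, *Mmp8* and *Olfm4*. Over all genes the shares were then 35.7% below and 46.5% above.

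As a share of the RNA measured, the 10 genes took 9.96%, 10.2% and 9.72% of all FPKM. The AAV-IL-27 library was lowest, by less than the AAV-Ctrl libraries differed from each other. *Ngp*, *Lcn2*, *Camp* and *Ltf* alone took 8.46%, 8.59% and 8.19%. The 6 further members shared the rest, and 6 of the 10 stood among the 20 most abundant genes. Haemoglobin genes took 3.40%, 2.32% and 0.405% of FPKM. With haemoglobin left out of the total, the 10 genes took 10.3%, 10.5% and 9.76%, and AAV-IL-27 then lay further below AAV-Ctrl than the AAV-Ctrl libraries lay apart.

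**Figure D3:**
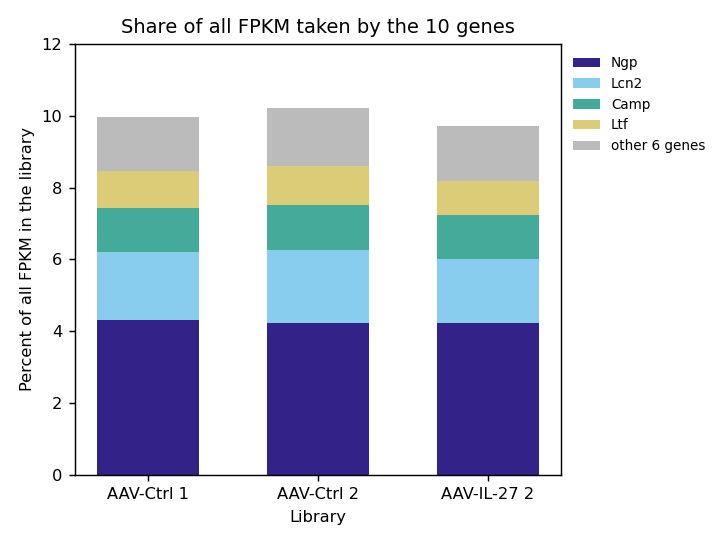
Percent of all FPKM in each library taken by *Ngp*, *Lcn2*, *Camp*, *Ltf* and the other 6 genes together (stacked bars from 0). The bars reach 9.96%, 10.2% and 9.72%, and *Ngp* alone makes up over 4% of each.

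Other genes of the granule pathway were examined next. Of 31 further genes of specific, gelatinase and secretory granules, 30 had a mean FPKM that reached 1, and their median log2 difference was -0.01. In this list 15 genes were below both AAV-Ctrl libraries, 11 were above both and 4 lay between. The most abundant were *Lyz2* (lysozyme, 10465.16, 11139.08 and 10913.90 FPKM), *Pglyrp1* (a peptidoglycan recognition protein, 2209.26, 2490.07 and 2446.33 FPKM) and *Anxa1* (annexin A1, 2089.91, 1952.42 and 1886.24 FPKM). The 1 gene at least 0.5 log2 units lower was *Stom*, at 17.59, 18.00 and 8.77 FPKM. Stomatin is also an abundant red cell membrane protein, and the erythroid genes, with a median of -2.81, were lower in the same library. The part of red cells in the *Stom* value was not tested. *Hp*, which encodes haptoglobin, a specific granule protein that binds free haemoglobin, was at 1588.68, 1630.64 and 1181.67 FPKM, a log2 difference of -0.45.

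Azurophil granule genes are switched off before the specific granule genes reach their peak. Their summed level was 216.62, 251.47 and 247.67 FPKM, though *Fcnb* among the 10 genes was below *Mpo* and *Rab44* in each library. In AAV-IL-27 alone, *Fcnb* was also below *Elane*, *Gusb* and *Prtn3*. *Mpo*, myeloperoxidase, was at 26.61, 32.13 and 35.44 FPKM and *Elane*, neutrophil elastase, at 17.95, 20.90 and 26.11 FPKM. AAV-IL-27 was highest for both, as it was for *Prtn3*. The ratio of *Mpo* to *Ltf* was 0.00433, 0.00507 and 0.00655. Over the 10 azurophil genes whose mean FPKM reached 1, the median was 0.21, beside 0.22 for AAV-Ctrl 2 minus AAV-Ctrl 1, with 6 above both and 3 below both. *Ctsc*, cathepsin C, was the 1 gene lower by at least 1 log2 unit (10.11, 9.43 and 4.17 FPKM), and *Prg2*, which is also an eosinophil gene, was lower by at least 0.5 (7.83, 10.89 and 5.16 FPKM). *Rab44*, a granule-associated GTPase and the most abundant of the list, was at 115.02, 134.39 and 127.31 FPKM.

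Transcription factors of granulopoiesis had a median of -0.00 over 14 genes, 6 of them above both AAV-Ctrl libraries, 4 below both and 4 between. *Cebpe*, the C/EBPε gene, was at 119.34, 138.70 and 124.05 FPKM, between the AAV-Ctrl libraries. *Spi1*, which encodes PU.1, was at 588.68, 611.08 and 632.37 FPKM. *Cebpb*, a C/EBP gene of emergency granulopoiesis, was at 258.98, 231.04 and 319.31 FPKM, highest in AAV-IL-27 with a log2 difference of 0.38. *Cebpd* was at 168.11, 164.53 and 174.37 FPKM. *Irf8*, a factor of the monocyte branch, was the 1 gene at least 0.5 log2 units lower (7.49, 7.89 and 4.66 FPKM).

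Late neutrophil genes, which are expressed after granule filling, had a median of 0.11 over 16 genes, with 11 above both AAV-Ctrl libraries and 3 below both. *Retnlg*, a resistin-like secreted protein, was at 13604.01, 14674.72 and 14445.51 FPKM, *Grina* at 1270.41, 1187.63 and 1438.25 FPKM and *Msrb1* at 1278.73, 1312.53 and 1378.08 FPKM. *Wfdc17* was the 1 gene of the list lower by at least 1 log2 unit, at 75.05, 48.99 and 15.76 FPKM. Among partners, inhibitors and receptors of granule proteins, 13 of 16 genes in the table had a mean FPKM that reached 1, with a median of 0.03. *Fpr2*, a formyl peptide receptor that also binds cathelicidin, was at 651.25, 653.82 and 657.82 FPKM. In that list 3 were lower by at least 1 log2 unit. They were *Fcna*, *Lrp1* (5.70, 6.77 and 1.89 FPKM), an endocytic receptor for lactoferrin and protease complexes, and *Tfrc* (9.32, 8.12 and 1.86 FPKM), the transferrin receptor, which is high in erythroid precursors.

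**Figure D4:**
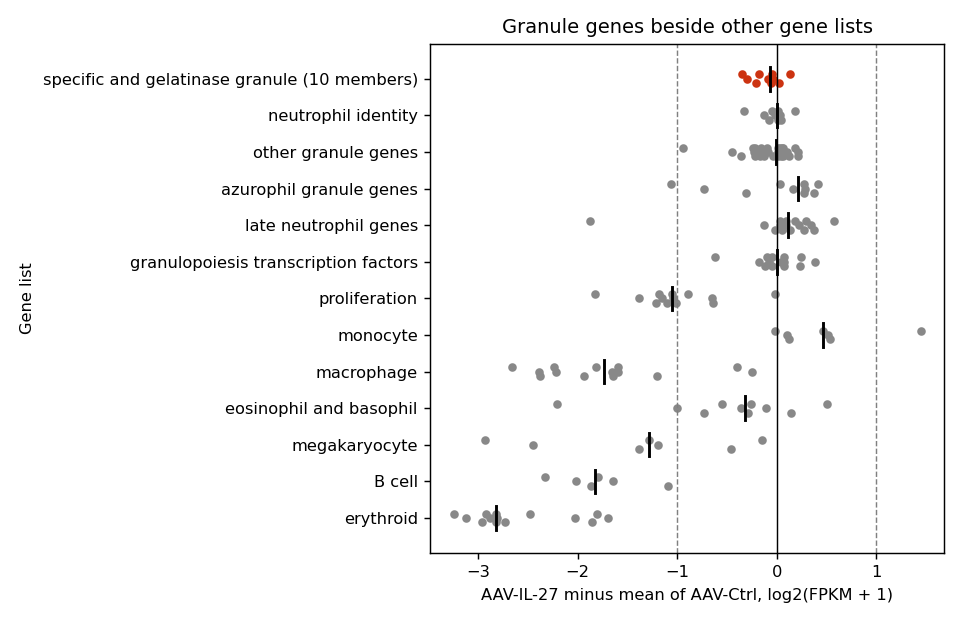
Log2 difference, AAV-IL-27 minus the mean of AAV-Ctrl, for each gene whose mean FPKM reached 1 in the 10 granule genes (red) and in other lists (grey), with the list median as a black bar. The granule genes have a median of -0.07, and the erythroid, B cell and macrophage lists have medians of -2.81, -1.83 and -1.74.

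Transcripts of several other cell types and of dividing cells had larger differences in the same libraries. The erythroid list was lower by at least 1 log2 unit than both AAV-Ctrl libraries in 14 of 14 genes, with summed levels of 20609, 13948 and 2367 FPKM. The macrophage list was lower in 12 of 14 (1005, 978 and 355 FPKM) and the B cell list in 5 of 6 (34.1, 45.3 and 6.35 FPKM). The megakaryocyte list was lower in 4 of 7 (77.8, 87.2 and 32.7 FPKM), the eosinophil and basophil list in 1 of 10 (155, 162 and 125 FPKM) and the proliferation list in 7 of 13 (160, 182 and 82.2 FPKM). Of 7 monocyte genes, 1 was higher by 1 log2 unit (*Cd14*, 14.95, 12.89 and 39.62 FPKM). In all, 5 were above both AAV-Ctrl libraries and 2 between, with a median log2 difference of 0.46. That median is the value of *F13a1*, a low gene (2.05, 2.06 and 3.20 FPKM). *Ly6c2* and *Csf1r*, the most abundant of the list, had log2 differences of 0.12 and -0.02. The whole monocyte list summed to 1125, 1185 and 1274 FPKM, most of it *Ly6c2* (1023.13, 1086.23 and 1145.19 FPKM). All sums here cover every gene found of a list, including those whose mean FPKM was under 1. The 2 T and NK cell genes whose mean reached 1 FPKM lay between the AAV-Ctrl libraries. The list summed to 10.63, 11.67 and 12.96 FPKM, and *Ncr1*, *Klrb1c* and *Cd3e* were under 1 FPKM in each library. *Gzma*, with a mean under 1 FPKM, was at 0.13, 0.38 and 1.35 FPKM, a log2 difference of 0.91. Each of these sums except those of the erythroid and monocyte lists and the macrophages was below 200 FPKM, against 59160, 59904 and 55788 FPKM for the 10 granule genes. What these other cells contributed to the granule gene values was not tested.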

How the data were processed

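BM cells were profiled with oligo-dT enriched, strand-marked libraries on a DNBSEQ instrument, per the labels. The authors deposited FPKM values, rounded to 2 decimals, in 16073 rows. The 1 row lacking a symbol was left out. The submitters' processing notes name the build mm10. The aligner and counting tool are not given in the sources used here. The table holds 1 further column of per-sample values, headed as a first IL-27 library, that matches no listed sample and was not used.

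Members and gene lists were chosen with earlier results of these data known. Differences were computed as log2(FPKM + 1), AAV-IL-27 minus the AAV-Ctrl mean, a scale that understates the change of low genes. Of the 9130 genes whose mean FPKM reached 1, those 1 log2 unit or more (or 0.5) away from each AAV-Ctrl library were called lower or higher. With 1 AAV-IL-27 library no test was run, in keeping with the descriptive reading of very small samples in the study's methods. The rule for named genes was all 10 members and, from each list, genes 0.5 log2 units or more from both AAV-Ctrl libraries and its 3 most abundant. For lists of other cell types and of proliferation only some of these are named. Single genes beyond the rule, such as *Hp*, *Cebpe*, *Mmp25* and *Timp2*, were chosen after their values were seen, as were the ratios between genes.

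Depth was estimated from 125, 111 and 102 low values of genes with 1 transcript, using GENCODE M21 lengths less 70 nt. Of these values, 52.8%, 60.4% and 56.9% fell within 0.15 of a whole fragment, so the fragment numbers are approximate and were not used for a count test. Gene positions and promoters are from RefSeq on GRCm38.p6, and exon numbers from GENCODE M21 on the same build, which is that of mm10. Similar transcripts were found with BLAST 2.17.0. Scripts ran in Python 3.11.15 with pandas 2.3.3, scipy 1.17.1, numpy 2.4.6 and, for plots, matplotlib 3.10.9, and were tested on simulated data. Alternatives were pseudocounts of 0.1 and 5, equal FPKM totals with and without haemoglobin, median ratios, other filters, a threshold of 0.5 and leaving out each AAV-Ctrl library.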

Additional observations from a re-analysis of the deposited data

How the results depend on the processing

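The median difference of the 10 genes stayed negative, between -0.13 and -0.03, under all 7 alternatives that give it. Over all genes the median ran from -0.01 to 0.03 under the same alternatives, highest with equal FPKM totals. No member reached 1 log2 unit under any of the alternatives run. Of 50 member values under the alternatives that keep all libraries, 5 moved further than 1 AAV-Ctrl SD, 4 of them with equal FPKM totals. Leaving out 1 of the 2 AAV-Ctrl libraries cannot move a difference that far, so those values were not counted. The largest difference in any setting had a size of 0.45 (*Fcnb*, without AAV-Ctrl 1). The sign turned for *Camp* (0.01 with equal FPKM totals), for *Mmp9* (0.04 without AAV-Ctrl 2) and for *Olfm4* (-0.02 without AAV-Ctrl 1). Members above both AAV-Ctrl libraries numbered 1 and became 2 with equal totals. Without 1 AAV-Ctrl library they numbered 1 to 3, beside 47.8% to 48.7% of all genes, and those below numbered 7 to 9, beside 51.1% to 51.6%. The share of all genes lower by the threshold, 2.32%, became 4.34% with a pseudocount of 0.1, 0.635% with 5, 7.01% at a threshold of 0.5, 1.33% with no filter and 1.54% at a mean FPKM of at least 5. The share higher, 0.307%, became 0.153% with a pseudocount of 5, 1.57% at a threshold of 0.5 and 0.187% with no filter, and ranged from 0.438% to 0.537% without 1 AAV-Ctrl library. A lower threshold calls more genes by rule, and a larger pseudocount shrinks the differences of low genes. The cause of the other shifts was not tested. With haemoglobin left out, the members' share of FPKM was 10.3%, 10.5% and 9.76%. No paired analysis was run, because the labels do not pair mice across the groups. The 1 replicate number that occurs in both groups does not show a pair.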

Other observations

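*Camp*, *Ngp* and *Ltf* lie within 1195390 bases of each other on chromosome 9 (chr9:109847377-111042766, GRCm38), an interval with 31 protein-coding RefSeq genes, of which 25 genes in all are in the table. *Ngp* lies 570352 bases from *Camp* and 596280 bases from *Ltf*. The other 22 genes of the interval were far less abundant, with the highest mean, 122.7 FPKM, in *Nbeal2*, a gene needed for platelet and neutrophil granules (114.44, 122.94 and 130.74 FPKM). The 11 of them whose mean FPKM reached 1 had a median log2 difference of 0.01, from -0.41 to 0.16, and 0 of them were called lower or higher at 1 log2 unit. The interval was looked up after the values of its granule genes were seen.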
